A study of Mus musculus with 8 samples.

Results

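Histone genes were described in single glucose-sensing neurons of the mouse hypothalamus. The members were all genes of the deposited expression tables whose symbol begins with Hist1h, Hist2h, Hist3h, Hist4h, H2af, H3f3 or H1f, which gave 77 of 16709 genes. Of these, 66 carry the Hist1h to Hist4h names and are called clustered here, and 11 carry the H2af, H3f3 or H1f names and are called variant. The neurons were ERα vlVMH neurons, cells with estrogen receptor-α in the ventrolateral part of the ventromedial hypothalamic nucleus, taken from female ERα-ZsGreen mice, in which the mouse ERα promoter drives the green fluorescent reporter that marked the cells. All were recorded under current clamp while glucose was changed between 5 and 1 mM. GE neurons 1, 4, 6 and 8 hyperpolarized and fired less at 1 mM, and GI neurons 2, 3, 5 and 7 depolarized and fired more. No genotype or agent other than the recording itself separates the classes, and the age of these mice is not given in the labels. The cells were picked by hand after recording and sequenced as 1 library each (Patch-seq). The 8 neurons were from 2 mice, with no label that assigns a neuron to a mouse. So a class counts as 1 sample here, no p-value was computed, and an SD given below is the spread over neurons.

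The quality table gave 6144126 to 14900568 reads per library for 7 of the neurons and 126914 for GI neuron 3, which the study left out for its depth. Values below are those of 4 GE and 3 GI neurons unless GI neuron 3 is named. All 6 neuronal markers (Snap25, Syt1, Stmn2, Rbfox3, Tubb3 and Slc17a6) passed a level of 5 FPKM, with sums of 813 to 1081 FPKM in GE neurons, against 815 to 916 FPKM in GI neurons. FPKM are fragments scaled by the length of the gene model and by the mapped fragments of the library. Transcripts of glia were also listed. The 7 oligodendrocyte markers summed to 462 to 1127 FPKM in GE neurons, against 315 to 622 FPKM in GI neurons, the 7 astrocyte markers to 1033 to 2621 FPKM in GE neurons, against 1160 to 1875 FPKM in GI neurons, and the 7 microglial markers to 785 to 1830 FPKM in GE neurons, against 1159 to 1417 FPKM in GI neurons. Histone transcripts of these cells cannot be told apart from those of the recorded neuron, and the part of these cells in the histone levels was not tested.

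Histones H2A, H2B, H3 and H4 form the core of the nucleosome, and H1 binds the DNA between cores. Clustered histone genes lie next to each other in the genome, are switched on when a cell copies its DNA, and give mRNAs that end in a stem-loop bound by the protein Slbp in place of a poly(A) tail. Most variant histone genes lie alone, are read throughout the cell cycle into polyadenylated mRNAs, and supply nucleosomes in cells that no longer divide, neurons included. Exceptions are H2afj, which lies near Hist4h4 on chromosome 6, and H2afx, which has a stem-loop (below). H2B and H4 have no gene among the variant members, whereas H2A, H3 and H1 have genes of both kinds. The cDNA of these libraries was made with a kit that primes on poly(A) tails. Shares of clustered and variant genes below are thus shares of captured transcripts, and how much mRNA without a tail was missed was not tested.

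The ends of the transcripts are shown first because they set the clustered genes apart from the variant genes by sequence alone. The stem-loop was searched as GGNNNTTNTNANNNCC (N, any base, with the outer 6 bases on each side pairing) in the 3′ UTRs of GENCODE transcripts of release M21 on GRCm38. It was found in 44 of the 66 clustered members and in 1 of the 11 variant members, H2afx, against 61 of 21924 protein-coding gene names in all (0.278%). No 3′ UTR is annotated for 14 clustered members, so a stem-loop could not be found in them whatever their true ends. The 6 printed here belong to members described below, with the stem-loop in capitals and 5 bases on each side, read 5′ to 3′ as DNA.
Hist1h4d, chr13:23581950-23581965, plus strand: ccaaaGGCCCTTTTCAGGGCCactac
Hist2h2aa1, chr3:96246032-96246047, plus strand: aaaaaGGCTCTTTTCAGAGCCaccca
Hist3h2ba, chr11:58949349-58949364, plus strand: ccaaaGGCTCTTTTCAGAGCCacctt
Hist1h4c, chr13:23698089-23698104, minus strand: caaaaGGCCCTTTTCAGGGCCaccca
Hist2h4, chr3:96262939-96262954, minus strand: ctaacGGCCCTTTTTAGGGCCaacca
H2afx, chr9:44335240-44335255, plus strand: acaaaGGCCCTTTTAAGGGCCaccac
Of 9 different stem-loops, that of Hist2h2aa1 and Hist3h2ba was the most frequent, with 25 members, and that of Hist1h4d and Hist1h4c was shared by 7. For 40 of the 43 clustered members with a stem-loop and a single RefSeq entry, the RefSeq gene ended within 10 bases after it, Hist1h4d among them at 4 bases and Hist3h2ba at 8 bases. The GENCODE transcript of 21 clustered members ran on for more than 100 bases, by 770 bases in Hist1h4d. H2afx, the variant that is phosphorylated at DNA breaks, ran on for 822 bases in both annotations. A poly(A) signal (AATAAA or ATTAAA) stood in the last 50 bases of a transcript of 16 clustered and 9 variant members. The mean FPKM over the 7 neurons had a median of 9.66 over the 16 clustered members with that signal and of 10.98 over the 49 without it. The 49 include the 14 with no annotated 3′ UTR, in which no signal could be found, so these medians compare annotations only. Clustered members with over 100 bases after the stem-loop (21) and those with up to 100 (23) had medians of 9.85 and 11.7 FPKM, so these groups of clustered genes lay close together and their ranges overlapped (0.0453 to 325 FPKM and 0.117 to 295 FPKM).

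All 77 members were listed in at least 1 of the 7 neurons, and 55 in all 7 (45 clustered and 10 variant). At 1 FPKM or more in every neuron were 41 clustered and 8 variant members. Histone genes held 0.221% to 0.280% of a neuron's summed FPKM. The clustered sum was 1917, 1732, 1522 and 1589 FPKM in GE neurons 1, 4, 6 and 8, against 2225, 1311 and 1499 FPKM in GI neurons 2, 5 and 7. GI neuron 2 was the highest of the 7 neurons and GI neuron 5 the lowest, so the GI neurons enclosed all GE neurons. The means were 1690 ± 175 FPKM in GE neurons (SD, n = 4), against 1678 ± 482 FPKM in GI neurons (SD, n = 3), a log2 ratio of GE over GI neurons of 0.01 after adding 1 FPKM to both. The variant sum was 1391, 1231, 1170 and 1384 FPKM in the GE neurons, against 1625, 1085 and 1082 FPKM in the GI neurons. The variant means were 1294 ± 111 FPKM in GE neurons, against 1264 ± 312 FPKM in GI neurons, a log2 ratio of 0.03, and here too GI neurons lay above and below all GE neurons. Neither sum differed between the classes by more than the spread over neurons.

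**Figure D1:**
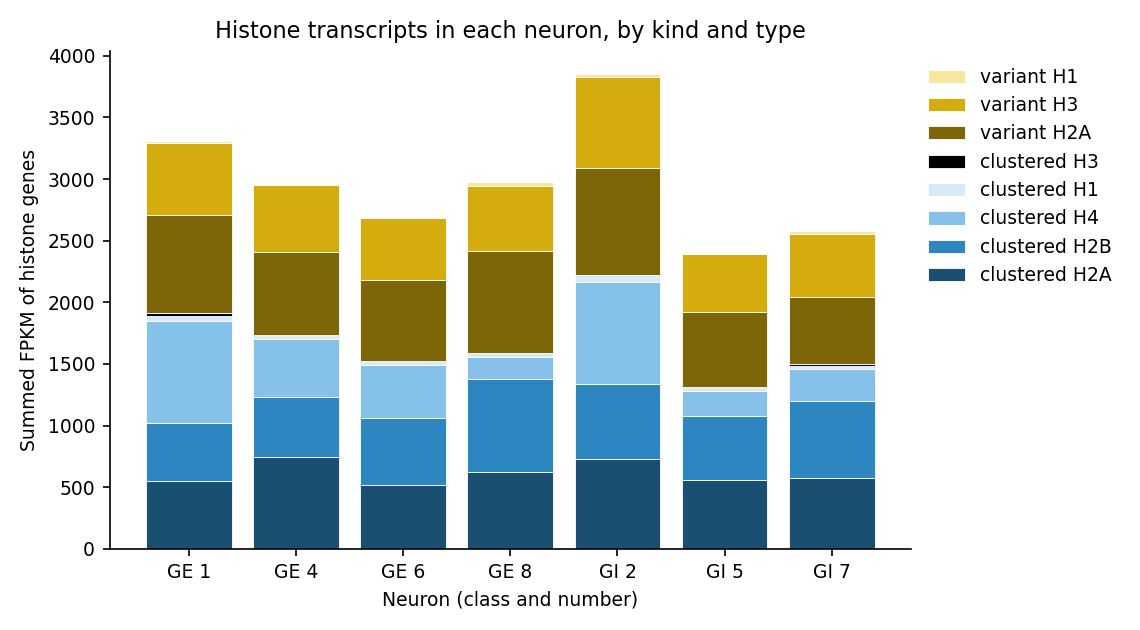
Stacked bars give the summed FPKM of histone genes in each of 4 GE and 3 GI neurons, split into clustered and variant genes and into H1, H2A, H2B, H3 and H4. Clustered H4 takes 828 FPKM in GE neuron 1 and 828 FPKM in GI neuron 2 against 181 FPKM in GE neuron 8, while clustered H3 is barely visible in any bar.

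Clustered genes held a near constant part of the histone FPKM. Their share was 58.0%, 58.5%, 56.5% and 53.5% in GE neurons 1, 4, 6 and 8, against 57.8%, 54.7% and 58.1% in GI neurons 2, 5 and 7, a difference of the means of -0.269 percentage points (GE minus GI). Counted in fragments instead, the order of the kinds turned round. The fragments behind each FPKM value were read from its deposited interval, and by this count clustered genes held 26.6%, 31.8%, 27.3% and 29.6% in the GE neurons, against 28.8%, 30.6% and 33.5% in the GI neurons. FPKM divide the fragments by the length of the gene model. The model of Hist1h4d in the deposited tables spans 312 bases, against 1138 in GENCODE. Each of its fragments added 4.68 to 6.71 times as much FPKM as 1 fragment of H2afz. So the clustered genes were the larger kind per length of the deposited gene model and the smaller kind by fragments, in each of the 7 neurons.

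The types differed in which kind they came from. Among the captured transcripts, H3 was almost wholly variant. H3f3a and H3f3b, which encode the same replacement H3 protein, held 95.9%, 99.0%, 98.0% and 99.9% of H3 FPKM in GE neurons 1, 4, 6 and 8, against 99.2%, 98.4% and 97.0% in GI neurons 2, 5 and 7. The 12 clustered H3 genes together gave 25.1, 5.42, 10.1 and 0.415 FPKM in the GE neurons, against 6.01, 7.61 and 15.6 FPKM in the GI neurons, on 1.00 to 26.7 fragments per neuron. Their order changed from neuron to neuron and the classes overlapped. Hist1h3e was listed in 1 neuron (13.4 FPKM in GE neuron 1, on 11 fragments), and Hist1h3a in GE neurons 1 and 4 at 11.6 and 3.92 FPKM and in GI neuron 7 at 0.724 FPKM. A further 7 (Hist1h3b, Hist1h3c, Hist1h3d, Hist1h3f, Hist1h3g, Hist1h3h and Hist1h3i) were listed in GI neuron 7 alone, at 0.317 to 1.07 FPKM, each on less than 1 fragment. These genes are nearly identical and a read can match several of them, so single clustered H3 genes are uncertain.

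H2A was mixed. Variant genes held 59.0%, 47.8%, 56.2% and 56.8% of H2A FPKM in the GE neurons, against 54.1%, 52.4% and 48.7% in the GI neurons, and 67.8% to 81.6% by fragments over the 7 neurons. H1 was the most variable of the mixed types, with a variant share of 27.0% to 47.6% in GE neurons and 7.24% to 53.0% in GI neurons. Over both kinds, the mean level was 1326 FPKM for H2A, 572 for H2B, 564 for H3, 458 for H4 and 46.1 for H1. H2A exceeded H2B by 1.93-fold to 2.88-fold in GE neurons and by 1.81-fold to 2.63-fold in GI neurons. The sums of 5 names that stand at 2 loci in the tables (Hist1h2ao, Hist1h2ap, Hist1h4n, Hist2h2aa1 and Hist2h2aa2) are included in these values.

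**Figure D2:**
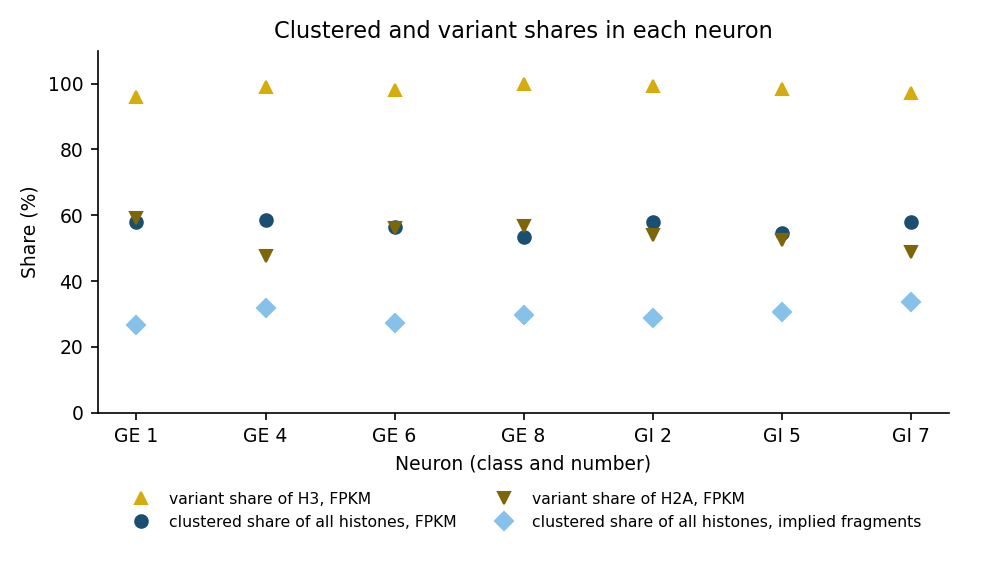
Points give shares in percent for each of 4 GE and 3 GI neurons. The variant share of H3 lies between 95.9% and 99.9% and that of H2A between 47.8% and 59.0%, and the clustered share of all histones is 53.5% to 58.5% by FPKM and 26.6% to 33.5% by fragments.

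Among the variant genes, H2afz, H2afv, H3f3a and H3f3b held 86.6% to 90.5% of the variant FPKM. H2afz, on chromosome 3 (137864487 to 137866922, plus strand; all positions are GENCODE, GRCm38), encodes H2A.Z, a variant found at promoters. Its level was 548, 432, 407 and 539 FPKM in GE neurons 1, 4, 6 and 8, against 583, 387 and 327 FPKM in GI neurons 2, 5 and 7, on 359 to 1610 fragments. GI neuron 2 was highest and GI neuron 7 lowest, so the classes overlapped, and the log2 ratio was 0.16. All 100-base windows of its coding sequence also occur in transcripts of other annotated genes, so part of its reads could have been placed elsewhere. H2afv on chromosome 11 encodes a second H2A.Z protein and stood at 102, 135, 125 and 157 FPKM in the GE neurons, against 141, 99.9 and 105 FPKM in the GI neurons. H2afz exceeded it by 3.20-fold to 5.35-fold in GE neurons and by 3.10-fold to 4.13-fold in GI neurons.

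H3f3a on chromosome 1 (180800832 to 180813943, minus strand) stood at 363, 313, 303 and 289 FPKM in the GE neurons, against 425, 260 and 295 FPKM in the GI neurons. H3f3b on chromosome 11 (116021912 to 116027962, minus strand) stood at 218, 231, 196 and 242 FPKM in the GE neurons, against 320, 211 and 211 FPKM in the GI neurons. GI neuron 2 was highest for both, and the classes overlapped. By FPKM, H3f3a exceeded H3f3b in every neuron, by 1.19-fold to 1.67-fold in GE neurons and by 1.23-fold to 1.40-fold in GI neurons. By fragments the order turned round in every neuron, with 343 to 1236 for H3f3a, against 452 to 1514 for H3f3b. H2afz, H2afv, H3f3a, H3f3b, H2afj and H2afy each varied by 1.57-fold to 1.89-fold between the highest and the lowest neuron. Other variants at 5 FPKM or more in a class varied more, H2afx by 3.13-fold, H1f0 by 14.5-fold and H2afy2 by 315-fold, and H1fx was listed in only 5 neurons. Over all genes at 5 FPKM or more in a class and listed in all 7 neurons, the median of that fold was 2.87. This median was not matched to the level of the genes named.

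The remaining variants were lower. H2afj averaged 51.6 ± 15.7 FPKM in GE neurons, against 62.3 ± 7.52 FPKM in GI neurons (SD, n = 4 and 3). H2afy, which encodes a macroH2A with a large extra domain, averaged 47.0 ± 13.9 FPKM in GE neurons, against 40.3 ± 5.66 FPKM in GI neurons. H2afx averaged 24.5 ± 11.01 FPKM in GE neurons, against 21.5 ± 9.18 FPKM in GI neurons. The linker histone H1f0, known to build up in cells that have stopped dividing, stood at 3.44, 6.79, 8.43 and 25.8 FPKM in the GE neurons, against 10.6, 1.78 and 13.6 FPKM in the GI neurons. GE neuron 8 was highest and GI neuron 5 lowest, a range of 14.5-fold. H1fx was listed in 5 of the 7 neurons, at 11.3, 2.20, 0 and 1.56 FPKM in the GE neurons, against 6.42, 0 and 15.0 FPKM in the GI neurons. H2afy3, annotated as a processed pseudogene, stood at 0.166 to 0.689 FPKM in GE neurons, against 0.184 to 0.718 FPKM in GI neurons.

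Among the clustered genes, Hist1h4d, Hist1h2bc, Hist2h2aa1 and Hist2h2aa2 held 47.3% to 59.2% of the clustered FPKM in GE neurons, against 45.3% to 52.7% in GI neurons. By cluster, the 52 Hist1 genes, all on chromosome 13, held 65.3% to 81.2% in GE neurons and 64.4% to 77.9% in GI neurons. The 10 Hist2 genes held 15.3% to 25.7% in GE neurons and 17.3% to 26.3% in GI neurons, and the 3 Hist3 genes 3.45% to 11.4% in GE neurons and 4.63% to 10.9% in GI neurons.

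Hist1h4d (chromosome 13, 23581598 to 23582735, plus strand), whose stem-loop is printed above, was the clustered gene with the highest mean FPKM. By fragments, Hist1h2bc (139 to 348) was higher than Hist1h4d in each of the 7 neurons. Hist1h4d stood at 697, 342, 269 and 121 FPKM in GE neurons 1, 4, 6 and 8, against 588, 119 and 141 FPKM in GI neurons 2, 5 and 7, on 23.7 to 305 fragments. GE neuron 1 and GI neuron 2 stood above the rest, and the range was 5.87-fold. The same 2 neurons had the highest FPKM summed over all genes, 1331200 in GE neuron 1 and 1475500 in GI neuron 2 against 1050400 to 1124400 in the other 5, and the highest FPKM per fragment of Hist1h4d relative to H2afz (6.71 and 6.65, against 4.68 to 5.66). The part of these in the level of Hist1h4d was not tested. Hist1h4d gave 62.2% to 84.1% of H4 FPKM in GE neurons, against 54.2% to 71.0% in GI neurons, and all 100-base windows of its coding sequence are unique among annotated transcripts. Without it, the clustered sum ranged from 1220 to 1468 FPKM in GE neurons and from 1193 to 1637 FPKM in GI neurons, and the log2 ratio of the means was -0.07. The other H4 genes are alike enough that Hist1h4a and Hist1h4k were listed at exactly the same FPKM in 6 of the 7 neurons.

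Hist1h2bc (chromosome 13, 23684199 to 23692908, plus strand) was the highest H2B gene, and no stem-loop was found in its GENCODE transcript. It stood at 172, 230, 199 and 283 FPKM in the GE neurons, against 251, 201 and 212 FPKM in the GI neurons, on 139 to 348 fragments. The classes overlapped and their means, 221 FPKM in both, gave a log2 ratio of -0.0028. At 1.64-fold between the highest and the lowest neuron, it lay within the range of H2afz, H2afv, H3f3a, H3f3b, H2afj and H2afy. Hist3h2ba, an H2B gene of the chromosome 11 cluster, was less even, at 37.0, 45.8, 86.2 and 127 FPKM in the GE neurons, against 42.5, 87.9 and 98.7 FPKM in the GI neurons.

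Hist2h2aa1 and Hist2h2aa2 on chromosome 3 are near copies, and share all 100-base windows of their coding sequence with other genes. Hist2h2aa1 stood at 221, 398, 141 and 328 FPKM in the GE neurons, against 333, 317 and 325 FPKM in the GI neurons. Hist2h2aa2 stood at 44.1, 8.9e-04, 144 and 19.9 FPKM in the GE neurons, against 0.94, 0.0047 and 0.0064 FPKM in the GI neurons. GE neurons 6 and 1, the highest for Hist2h2aa2, were the lowest for Hist2h2aa1. Summed, the pair stood at 265, 398, 285 and 348 FPKM in the GE neurons, against 334, 317 and 325 FPKM in the GI neurons, a log2 ratio of -0.0044 (means of 324 FPKM for GE, against 325 FPKM for GI neurons).

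**Figure D3:**
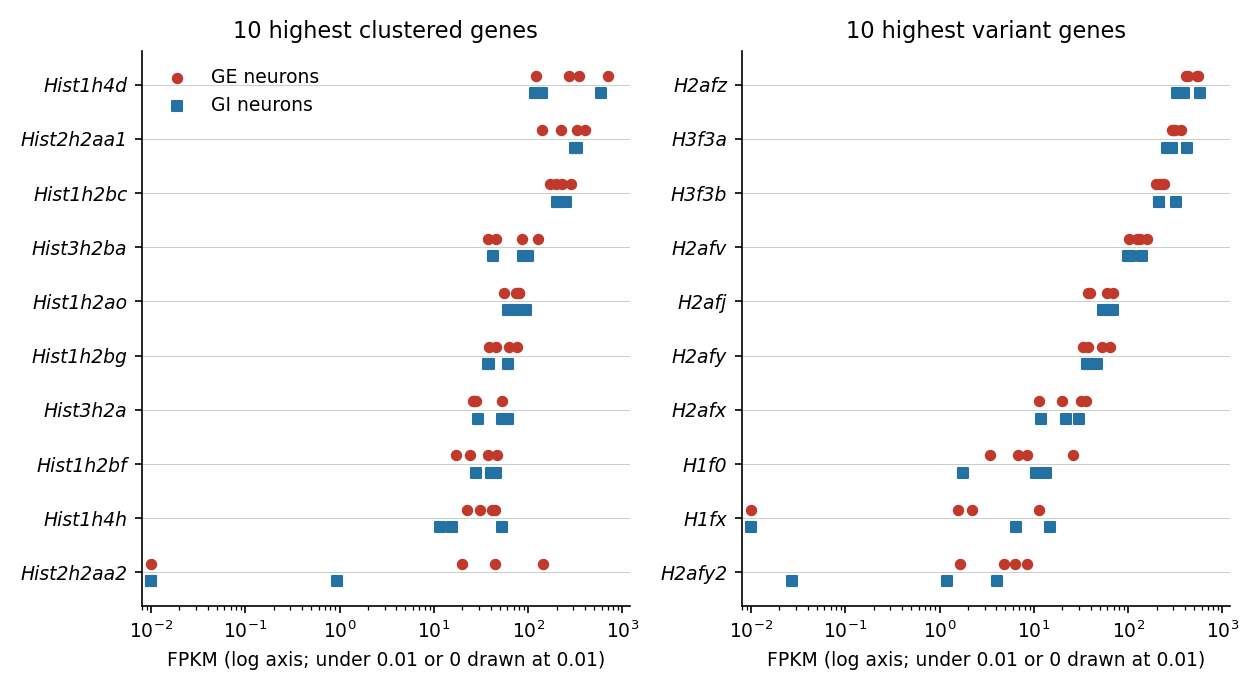
Points give the FPKM on a log axis of the 10 clustered and 10 variant genes with the highest mean, in 4 GE neurons (circles) and 3 GI neurons (squares), with values under 0.01 FPKM or not listed drawn at 0.01. The classes overlap for all 20 genes, and Hist2h2aa2 stays under 1 FPKM in the 3 GI neurons and reaches 19.9 to 144 FPKM in 3 of the 4 GE neurons.

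The linker histones of the clusters were low beside the core histones. Hist1h1c averaged 14.0 ± 1.55 FPKM in GE neurons, against 19.0 ± 4.68 FPKM in GI neurons (SD, n = 4 and 3), and Hist1h1e 11.8 ± 3.90 FPKM in GE neurons, against 14.7 ± 12.9 FPKM in GI neurons. Hist1h1d lay at 0 to 2.55 FPKM in GE neurons and at 0.133 to 0.647 FPKM in GI neurons, and Hist1h1b was listed in GE neuron 1 alone (6.54 FPKM, on 11.9 fragments).

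Clustered H2A and H2B genes often lie head to head, with their start sites a short stretch apart, and GENCODE holds 13 such pairs among the members, with 172 to 305 bases between the starts. The pair with 172 bases is Hist3h2a with Hist3h2bb-ps, which is annotated as a processed pseudogene. The levels within a pair were close in some and far apart in others. In 5 pairs the mean FPKM over the 7 neurons lay within 2-fold of each other, and in 3 pairs they differed by more than 10-fold (Hist1h2ac with Hist1h2bc, Hist1h2aa with Hist1h2ba and Hist1h2ao with Hist1h2bq). Reads of several of these genes cannot be assigned to 1 gene, so these folds are uncertain. Of the 100-base coding windows, none is unique to Hist1h2ao or Hist1h2bq, and 5.32% are unique to Hist1h2bc, 38.1% to Hist1h2ac, 72.6% to Hist1h2ba and 100% to Hist1h2aa. Even so, Hist1h2ba had the same fragments as Hist1h2bj in GE neurons 6 and 8 and GI neuron 7 (4.95, 5.74 and 2.50). Its level is therefore uncertain as well, and Hist1h2aa rested on at most 0.25 fragments in a neuron. The widest gap was that of Hist1h2ac and Hist1h2bc. Hist1h2ac stood at 1.70, 3.27, 1.27 and 1.22 FPKM in the GE neurons, against 2.67, 2.04 and 2.84 FPKM in the GI neurons, 70.4-fold to 231-fold below Hist1h2bc. The stretch between their RefSeq starts is shown because both genes read away from it. It is chr13:23683960-23684198 (GRCm38), given on the plus strand, with an octamer (ATTTGCAT or ATGCAAAT) and a TATA match (TATAAA or TTTATA) in capitals.
Between Hist1h2ac (minus strand) and Hist1h2bc (plus strand): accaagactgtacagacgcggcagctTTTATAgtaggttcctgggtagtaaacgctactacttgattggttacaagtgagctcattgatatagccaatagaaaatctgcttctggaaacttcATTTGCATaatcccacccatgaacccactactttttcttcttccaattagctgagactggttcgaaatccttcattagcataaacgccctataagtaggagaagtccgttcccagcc
In the opposite direction, Hist1h2ao exceeded its H2B neighbour Hist1h2bq, at a mean of 73.6 FPKM against 4.201 FPKM. By FPKM, Hist2h2ac also exceeded Hist2h2be, at a mean of 20.3 against 2.24. By fragments, Hist2h2be was the higher in GE neurons 6 and 8 and GI neurons 5 and 7. Hist2h2ac was the higher in GE neurons 1 and 4 and GI neuron 2. Their deposited models span 390 bases (Hist2h2ac) and 2618 bases (Hist2h2be), and the part of model length in this gap was not tested. Hist1h2ae and Hist1h2bg differed by 2.71-fold, with Hist1h2bg higher in all 7 neurons. In RefSeq promoters (250 bases before to 50 after the start, GRCm38.p6), found for 68 members, the octamer was present on either strand in 7 of 16 clustered H2B genes and 7 of 17 clustered H2A genes, in none of 26 clustered H1, H3 and H4 genes, in 1 of 9 variant genes (H3f3b) and in 1.97% of all genes. The TATA match was present in 34 of 59 clustered genes, in 1 of 9 variant genes and in 15.7% of all genes. CCAAT (or ATTGG), which can overlap the octamer at its edge, was present in all 47 clustered H1, H2A, H2B and H3 genes, in 3 of 12 clustered H4 genes, in 6 of 9 variant genes and in 41.1% of all genes. Windows of head-to-head partners overlap, so 1 match can count for both genes. Both partners had the octamer in Hist1h2aa with Hist1h2ba, Hist1h2ae with Hist1h2bg and Hist1h2ah with Hist1h2bk. A match says only that these letters stand in the window.

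**Figure D4:**
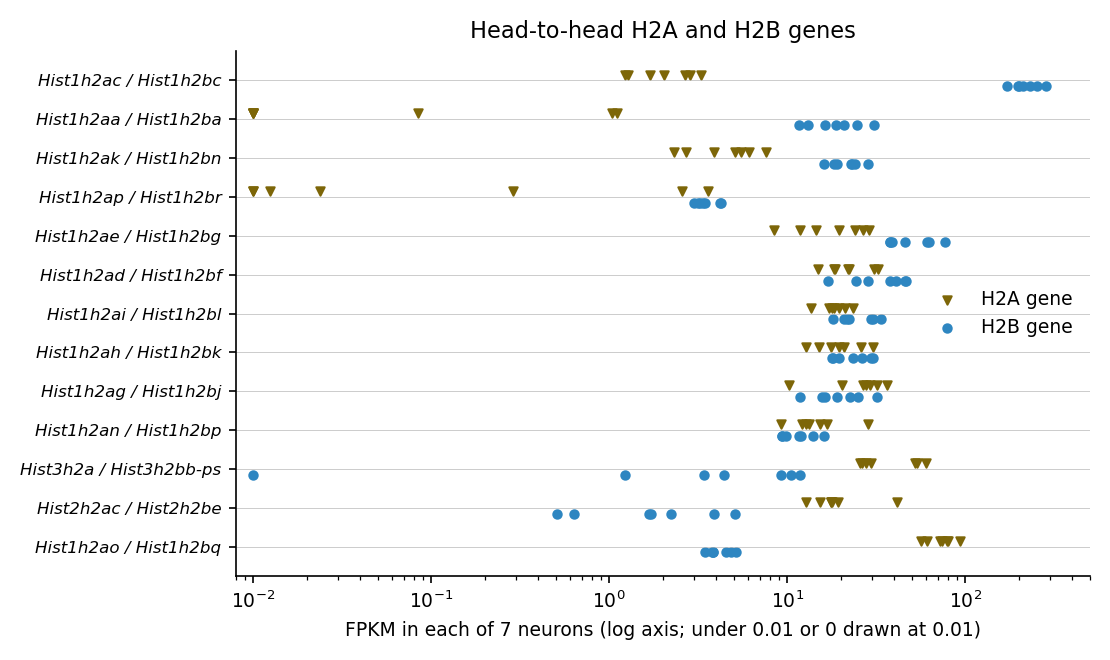
Points give the FPKM on a log axis of the H2A gene (triangles) and the H2B gene (circles) of each of 13 head-to-head pairs in each of 7 neurons, with values under 0.01 FPKM or not listed drawn at 0.01. The pairs run from Hist1h2ac and Hist1h2bc (H2B higher, 103-fold over the mean levels) to Hist1h2ao and Hist1h2bq (H2A higher). Hist3h2bb-ps is annotated as a processed pseudogene.

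The comparison of the classes asked whether GE and GI neurons, which answer low glucose in opposite ways, differ in histone transcripts. In either class, 5 FPKM or more was reached by 51 members (41 clustered and 10 variant), of which 22 were higher in GE neurons and 29 in GI neurons, with a median log2 ratio of -0.04 against 0.02 over all 7038 genes at that level. At least 2-fold apart were 4 of the 51 (7.84%), 2 higher in GE and 2 higher in GI neurons, against 6.79% of all genes (3.74% higher in GE and 3.05% higher in GI neurons). Among the 51, neurons of the classes did not overlap for 1 member, Hist1h4c, against 4.67% of all genes (2.66% higher in GE and 2.02% higher in GI neurons). The members' count was thus near the background.

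The 4 members were Hist2h2aa2 and H2afy2, higher in GE neurons, and Hist1h4c and Hist2h4, higher in GI neurons. Hist2h2aa2 had a log2 ratio of 5.33, which was gone once it was summed with its near copy Hist2h2aa1 (above) and was -0.29 with GI neuron 3 added, where it stood at 255 FPKM. H2afy2, which encodes the second macroH2A, stood at 1.65, 4.79, 8.50 and 6.37 FPKM in the GE neurons, on 10.1 to 18.1 fragments, against 0.027, 4.08 and 1.21 FPKM in the GI neurons, on 0.0056 to 12.3 fragments. GI neuron 5 lay among the GE neurons, and the log2 ratio was 1.19 (means of 5.33 ± 2.88 FPKM for GE, against 1.77 ± 2.08 FPKM for GI neurons). The log2 ratio was 0.93 without GE neuron 6, 0.80 without GI neuron 2 and 0.61 with 5 FPKM added in place of 1, each under 2-fold. Without GE neuron 8 it was 1.11, but neither class then reached 5 FPKM. Hist1h4c stood at 9.95, 8.43, 14.8 and 3.37 FPKM in the GE neurons, on 0.444 to 3.07 fragments, against 76.4, 18.2 and 21.2 FPKM in the GI neurons, on 3.36 to 13.2 fragments. All GI neurons were higher than all GE neurons, at a log2 ratio of -1.96, and in 3 of the GE neurons its value was the very one listed for other H4 genes. GI neuron 2 stood far above the other GI neurons, and the log2 ratio of Hist1h4c was -1.12 with class medians. With GI neuron 3 added, in which Hist1h4c was not listed, it was -1.56. Hist2h4 was listed in 3 neurons, on 1.00 fragment in GE neuron 1 and on 3.996 and 0.25 fragments in GI neurons 2 and 5, and its log2 ratio was -0.24 without GI neuron 2.

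**Figure D5:**
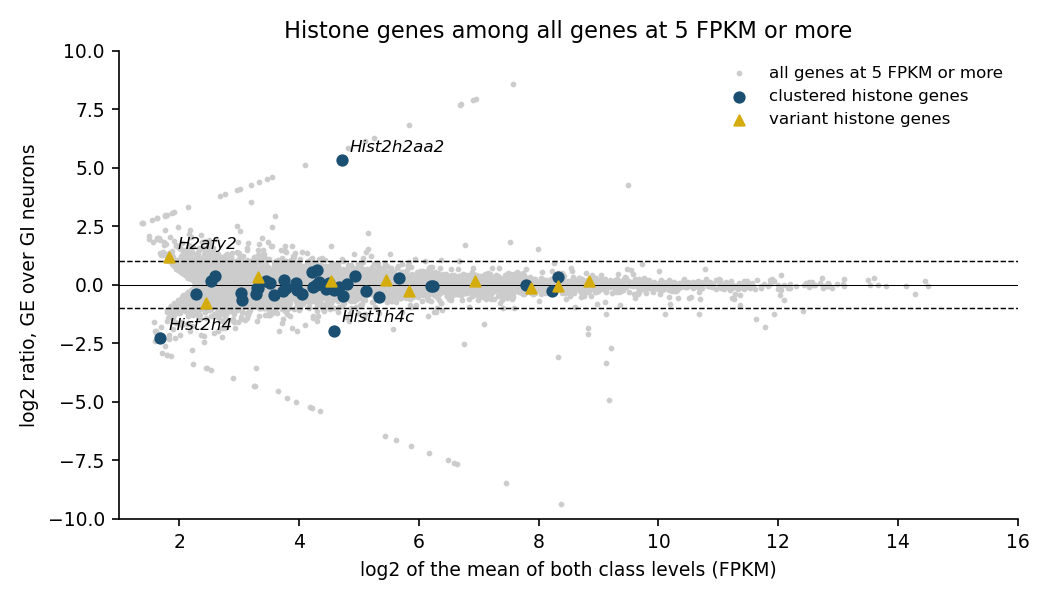
Each point is a gene at 5 FPKM or more in either class, with the log2 of its mean level across and its log2 ratio of GE over GI neurons up, for 7038 genes in grey, 41 clustered genes (circles) and 10 variant genes (triangles). Dashed lines mark 2-fold, and the 4 histone genes past them are named, from Hist2h2aa2 at 5.33 to Hist2h4 at -2.29.

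Genes that act on histones or on histone mRNAs were taken as lists. Of 14 genes for the transcription and 3′ end of clustered histone mRNAs, 5 reached 5 FPKM (2 with a higher GE mean, 3 with a higher GI mean) and none was 2-fold apart. Slbp, which binds the stem-loop, stood at 16.2, 19.0, 23.8 and 25.9 FPKM in the GE neurons, against 17.2, 26.6 and 22.2 FPKM in the GI neurons. Lsm10, a subunit of the U7 particle that cuts clustered histone mRNAs, stood at 31.7 to 83.5 FPKM in GE neurons, against 33.4 to 79.5 FPKM in GI neurons. Of 23 histone chaperones, 12 reached 5 FPKM (5 with a higher GE mean, 7 with a higher GI mean) and none was 2-fold apart. The highest were Nap1l5 and Npm1, at means of 484 and 235 FPKM in GE neurons, against 522 and 257 FPKM in GI neurons, and Anp32e, which removes H2A.Z, was at 8.89 FPKM in GE neurons, against 11.9 FPKM in GI neurons. Of 21 genes of S phase and mitosis, Pcna and E2f1 reached 5 FPKM. Pcna, the sliding clamp of DNA copying that also serves DNA repair, stood at 25.2, 25.8, 44.5 and 69.4 FPKM in the GE neurons, against 16.8, 24.7 and 29.1 FPKM in the GI neurons, with overlap. Mki67, a marker of dividing cells, was listed at 0.0504 FPKM in GE neuron 4 and 0.164 FPKM in GI neuron 5, and Ccnb1 in no neuron. Other genes with class means under 5 FPKM were listed in every neuron. Ccna2 stood at 2.56 to 6.46 FPKM in GE neurons, against 3.28 to 5.18 FPKM in GI neurons. Mcm7 stood at 1.23 to 5.58 against 2.67 to 4.42 FPKM, and Tyms at 1.81 to 5.07 against 1.68 to 4.58 FPKM.

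Depth set how firmly single clustered genes could be read. Of the members listed in a neuron, 15 to 34 in GE neurons and 21 to 37 in GI neurons rested on fewer than 5 fragments. In GI neuron 3, with 126914 reads, 39 members were listed and 36 of them on fewer than 5 fragments.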

How the data were processed

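The authors deposited, for each neuron, a table of FPKM values above 0 per gene with the bounds of an interval. Which tool, annotation and build made them is not given in the sources used here, and positions in them differ from GRCm38, so positions given are those of GENCODE. The submitters' processing notes name Trim Galore 0.4.1, STAR 2.5.3a, featureCounts 1.6.0 and DESeq2, and the counts behind these were not used. A quality table deposited by the authors gives the number of reads, the fraction of reads mapped and fractions of aligned bases by region, and its rows of means and of the authors' own test were not used. Samples were matched to tables by neuron name.

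A gene not listed was set to 0, and loci of 1 name were summed. Fragments were computed as 4 times the square of FPKM over the upper arm of the interval, read as 2 SD of counting error, and cover counting error only, while amplified reads are not independent molecules. Class levels are means, with 1 FPKM added to both for log2 ratios. The members and lists were chosen with earlier results of these data known. Genes named are members listed in all 7 neurons, the 10 highest clustered and variant members, members over 2-fold apart and list members at 5 FPKM or more. Members at 0 in some neurons, Mki67, Ccnb1, Ccna2, Mcm7 and Tyms were also named, after their values were seen. The alternatives were leaving out each neuron in turn, adding GI neuron 3, class medians, 2 scalings, a minimum of 5 fragments, pseudocounts of 0.1 and 5, and other level filters. Added after seeing the data were the mean of 2 loci, GE neuron 1 and GI neuron 2 left out, Hist1h4d left out, fragments in place of FPKM, and Hist2h2aa1 summed with Hist2h2aa2. The rule for 2-fold differences was tested on simulated data. Python 3.11.15, numpy 2.4.6, pandas 2.3.3 and matplotlib 3.10.9 were used.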

Additional observations from a re-analysis of the deposited data

Results flagged for a closer look

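Among the 4 GE neurons, 33 sums and genes were looked at for a neuron far from the others by Dixon's test of the gap to the nearest neuron over the whole range, which chance gives in about 1 of 20 groups, and 2 were found. The 3 GI neurons were too few to be looked at. Hist3h2a stood at 52.4 FPKM in GE neuron 8, against 25.7 to 27.8 FPKM in the other GE neurons, and GI neurons reached 60.5 FPKM. Hist2h4 stood at 1.73 FPKM in GE neuron 1, on 1.00 fragment, and was not listed in the other GE neurons. With the other 3 at 0, any value in the fourth neuron is picked out, so nothing is read from it.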

How the results depend on the processing

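The log2 ratio of the clustered sum moved by less than the spread over neurons (0.28) in all 17 alternatives, from -0.14 to 0.27 with 1 neuron left out and from -0.07 to 0.20 otherwise. That of the variant sum did so in 14 of 15, from -0.07 to 0.26 with 1 neuron left out, and was 0.27 with the median of the neurons, where it moved by more. The cause was not tested. The sign of both sums thus depends on which neuron is left out, and both were below 0 under median-of-ratios scaling (-0.02 and -0.01). The clustered share, GE minus GI, moved by less than its spread (2.10 points) in all 16, from -1.34 to 0.78 points with 1 neuron left out, and was -2.13 points by fragments. The count of members at least 2-fold apart was 4 to 7 with 1 neuron left out (7 without GI neuron 7), 7 with the median of the neurons, 10 with no filter on level and 2 at a level of at least 20 FPKM. The last 2 differ in the number of genes counted. Of single members, 34 of 714 values moved by more than their spread and 1 turned round, Hist2h2aa2 at -0.29 with GI neuron 3 added. H2afy2 was under 2-fold without GE neuron 6 (0.93), without GI neuron 2 (0.80) and with 5 FPKM added (0.61), and without GE neuron 8 (1.11) it left the count by the level filter alone. Hist2h4 was under 2-fold without GI neuron 2 (-0.24) and was 0 in both classes with values under 5 fragments set to 0. No paired analysis was possible because the classes share no neuron number and the labels do not give the mouse of each neuron. Many values rest on fewer than 5 fragments, and 12 of 64 clustered members have no unique 100-base coding window.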
